A study of Mus musculus with 12 samples.

Results

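The heat shock chaperones described here are 10 genes of the 25611 in the RNA-seq table, chosen by gene symbol: Hsf1, Hspa1a, Hspa1b, Hspa8, Hsp90aa1, Hsph1, Dnajb1, Hspb1, Hspd1 and Hspe1. All 10 were found under 1 row each and passed the filter on low counts, which kept 13190 genes. RNA came from whole livers of 12 male C57BL/6J mice of 8 to 10 weeks, with no genetic change, in 3 groups of 4. Sham mice had the abdomen opened only. CLP mice had the cecum ligated and punctured, which lets gut bacteria into the abdomen and causes sepsis. CLP+DCA mice had the same surgery and, after 24 hr, an injection of 25 mg/kg dichloroacetate (DCA), an inhibitor of the kinases that switch off pyruvate dehydrogenase. All livers were taken 30 hr after surgery, 6 hr after DCA, and every mouse had been given saline under the skin. The labels give the same injection and harvest times for all 12 mice, but what sham and CLP mice were injected with is not given in the sources used here. The question was whether chaperone transcripts differ in the septic liver, and whether they differ again after DCA.

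Heat shock proteins bind proteins that are unfolded or not yet folded and help them reach or keep their shape. Heat, fever, oxidants and other insults that unfold proteins release the transcription factor HSF1, which binds repeats of a short DNA word, the heat shock element, and raises the transcription of chaperone genes within hours. Many chaperones are also made without stress: HSP70, HSP90 and their J-domain partners fold newly made proteins in the cytosol, and HSP60 with HSP10 folds proteins inside mitochondria, of which hepatocytes hold many.

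Heat shock elements are built from the unit GAA and its reverse complement TTC in alternation, with any 2 bases between units. Runs of at least 2 units (8 bases) and of at least 3 units (13 bases) were searched in the promoter windows of RefSeq (build GRCm38.p6), which span 300 bases, 250 before the first transcribed base and 50 from it on. Both strands are covered, since such a run reads as a run on the other strand too. Of the 10 genes, 7 had windows, 10 in all, and Hsf1, Hsp90aa1 and Hspa8 had none. At least 2 units were found in 6 of the 7 genes (15.1% of all 32851 windows hold such a run) and at least 3 units in Hspd1, Hspe1 and Hsph1 (0.603% of all windows). Neither window of Dnajb1 held a run. Hspd1 and Hspe1 lie head to head on chromosome 1, and the same run of 4 units stands in the windows of both. It covers positions -89 to -72 from the start of Hspe1 and -144 to -127 from that of the second Hspd1 window. The windows of Hspa1a and Hspa1b differ at 4 of 300 bases and share a run of 2 units at -104 to -97. A match of letters is a description and not evidence of binding. The windows of 4 genes are shown: Hspe1 because it holds the run of 4 units that it shares with Hspd1, Hsph1 because it holds a run of 3 units, Hspa1b as the stress-induced HSP70 gene, and Hspb1 as the gene that varied most between mice. They read 5′ to 3′ on the strand of the gene, and capitals mark the bases of the runs.
Hspe1, chr1:55087898-55088197, plus strand: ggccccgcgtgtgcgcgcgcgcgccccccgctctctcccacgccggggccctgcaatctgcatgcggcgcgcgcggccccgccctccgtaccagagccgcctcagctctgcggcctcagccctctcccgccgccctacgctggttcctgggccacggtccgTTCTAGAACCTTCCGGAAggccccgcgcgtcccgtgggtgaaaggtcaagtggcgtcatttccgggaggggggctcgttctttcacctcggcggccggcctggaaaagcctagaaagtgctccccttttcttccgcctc
Hsph1, chr5:149636287-149636586, minus strand: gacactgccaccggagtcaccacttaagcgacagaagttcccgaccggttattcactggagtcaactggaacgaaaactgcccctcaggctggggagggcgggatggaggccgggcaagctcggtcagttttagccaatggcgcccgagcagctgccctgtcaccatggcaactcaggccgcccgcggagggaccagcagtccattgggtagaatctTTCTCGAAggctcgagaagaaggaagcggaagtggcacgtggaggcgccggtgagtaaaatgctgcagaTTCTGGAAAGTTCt
Hspa1b, chr17:34959189-34959488, minus strand: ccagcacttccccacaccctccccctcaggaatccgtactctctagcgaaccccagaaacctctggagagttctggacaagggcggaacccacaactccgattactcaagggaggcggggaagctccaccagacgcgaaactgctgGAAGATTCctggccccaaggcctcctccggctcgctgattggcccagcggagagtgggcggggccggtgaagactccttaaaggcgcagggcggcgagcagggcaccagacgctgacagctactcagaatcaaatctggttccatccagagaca
Hspb1, chr5:135887669-135887968, plus strand: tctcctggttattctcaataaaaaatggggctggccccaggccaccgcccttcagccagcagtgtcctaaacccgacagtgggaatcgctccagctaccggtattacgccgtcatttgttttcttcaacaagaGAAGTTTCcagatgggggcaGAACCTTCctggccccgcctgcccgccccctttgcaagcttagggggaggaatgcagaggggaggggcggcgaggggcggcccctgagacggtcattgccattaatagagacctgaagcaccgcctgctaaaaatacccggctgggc

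**Figure D1:**
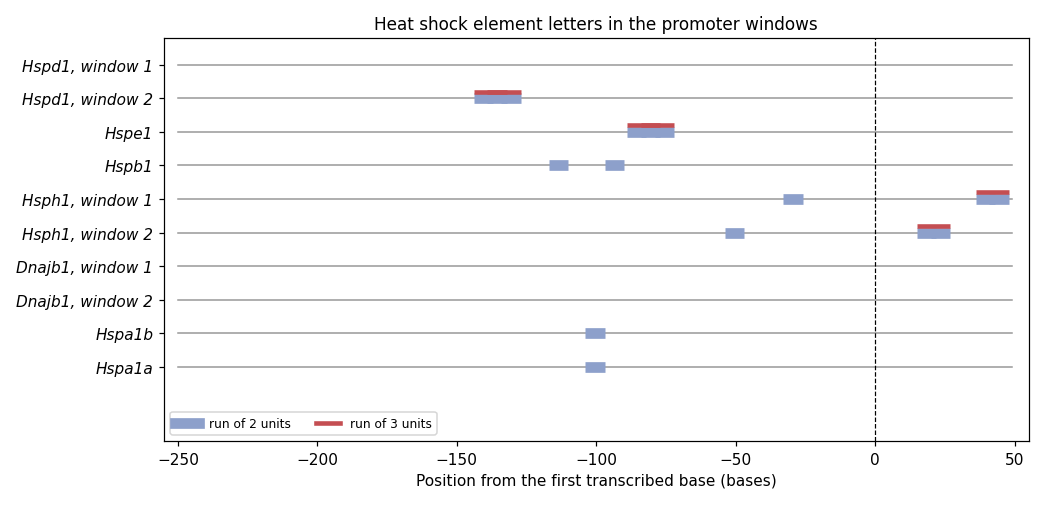
Position of heat shock element letters in the 10 promoter windows of 7 chaperone genes, in bases from the first transcribed base (dashed line). Blue bars are runs of 2 units and red bars runs of 3 units. Runs of 3 stand in Hspd1 (window 2), Hspe1 and both windows of Hsph1, and neither window of Dnajb1 holds a run.

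Between 24436513 and 44266819 reads per mouse were counted, and levels are given as CPM, counts scaled to the TMM-normalized library size. The 10 genes together took 0.144% to 0.152% of the reads in the 4 sham mice, 0.0798% to 0.161% in CLP and 0.0885% to 0.1996% in CLP+DCA. The hepatocyte marker Alb had at least 320064 reads in every mouse, whereas Ass1, an abundant hepatocyte enzyme, was counted at 1 to 33 reads per mouse. The summed CPM of the 9 hepatocyte markers found was 68626 to 88026 in sham, 34717 to 52788 in CLP and 30281 to 63227 in CLP+DCA. That of the 10 neutrophil markers was 6.65 to 9.70, 33.5 to 46.9 and 6.51 to 59.4. For the other markers the sums were 193 to 320, 298 to 386 and 247 to 482 (Kupffer cells and macrophages), 142 to 189, 187 to 225 and 145 to 212 (endothelium), 66.6 to 94.2, 105 to 286 and 77.6 to 264 (stellate cells and cholangiocytes) and at most 3.89 CPM in any mouse (lymphocytes). The lymphocyte marker Cd8a was at 0 reads in 3 mice.

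Livers stood apart in 2 ways that touch the chaperones. First, CLP replicates 2 and 4 and CLP+DCA replicate 3 gave 33.9%, 31.2% and 33.5% of their reads to 28 acute phase genes, the secreted proteins that the liver makes in inflammation. The share was 10.3% to 11.8% in sham mice, and 23.0%, 19.6%, 15.4%, 18.7% and 13.9% in CLP replicates 1 and 3 and CLP+DCA replicates 1, 2 and 4. The chaperone share was lowest in those 3 mice, at 0.0798%, 0.0826% and 0.0885%. Both are shares of the same reads, so that a higher acute phase share leaves less for every other gene. On the TMM scale the difference was smaller: the 10 genes summed to 933, 952 and 964 CPM in those mice. The sum was 1346 to 1440 CPM in sham mice and 1400 to 1928 CPM in the other 5 mice. On the first principal component of all genes, which holds 59.2% of the variance, those 3 mice scored 72.8, 46.3 and 82.6, against -40.6 to -33.1 in sham mice and -28.9 to 10.4 in the other 5 mice. Second, the liver of CLP replicate 3 held skeletal muscle transcripts: 9 defining markers of muscle, a list written after these values were seen, had 50.7 to 675 CPM each there, Acta1 the highest, and no more than 0.808 CPM each in the other 11 mice, with 4 to 8 of them at 0 reads in 10 of those mice. Their part in the results below was not tested. Several fold changes below are also given without them.

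**Figure D2:**
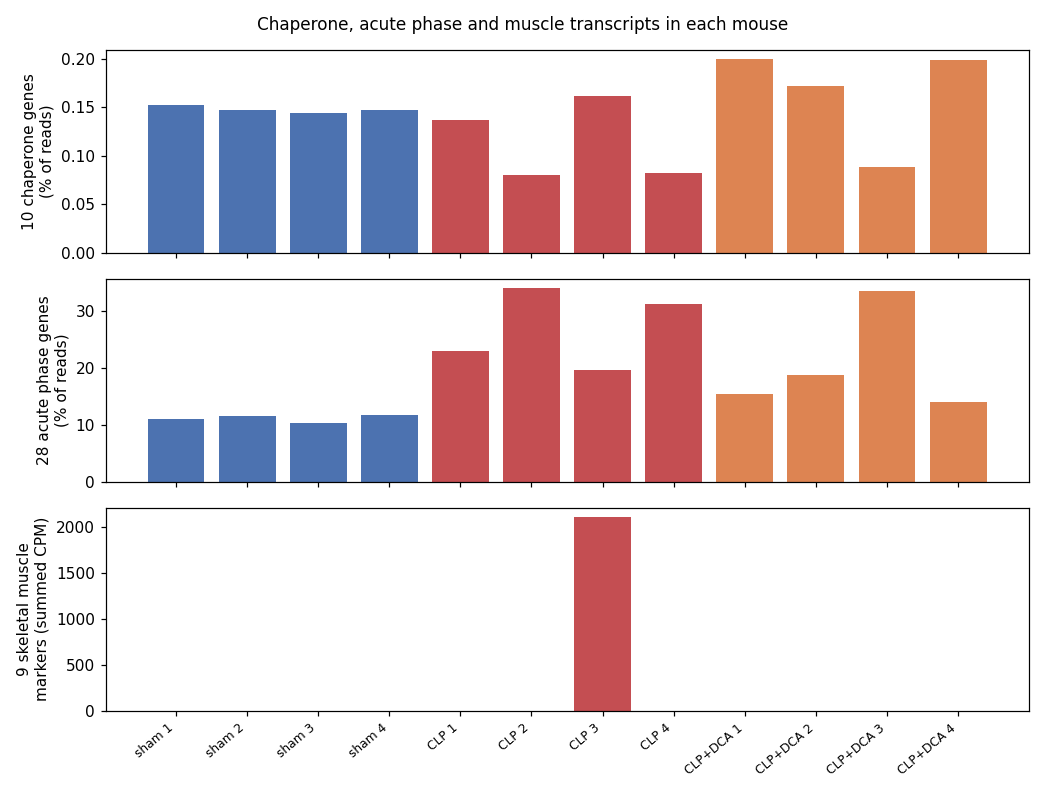
Percent of reads from the 10 chaperone genes (top), percent of reads from 28 acute phase genes (middle) and summed CPM of 9 skeletal muscle markers (bottom) in each of the 12 mice, 1 bar a mouse. CLP 2, CLP 4 and CLP+DCA 3 have the lowest chaperone and the highest acute phase shares, and the muscle sum is 2103 CPM in CLP 3 and at most 2.87 CPM elsewhere.

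Per kilobase of the longest coding transcript, the constitutive HSP70 gene and the mitochondrial chaperonin stood highest in sham livers. Hspa8 was at 296 ± 18.3 CPM per kb (SD, n = 4), Hspd1 at 153 ± 7.09 and Hspe1 at 115 ± 4.01. Then came Hsp90aa1 at 37.7 ± 3.93, Hspb1 at 18.3 ± 3.47 and Hsph1 at 11.8 ± 0.736. Hsf1 at 7.61 ± 0.411 and Dnajb1 at 6.37 ± 1.2 CPM per kb had overlapping ranges, the only neighbours in this order that did. The stress-induced Hspa1b was at 2.43 ± 1.68 and Hspa1a at 0.142 ± 0.108 CPM per kb.

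None of the 10 chaperone genes passed the FDR of 0.05 in any of the 3 comparisons (edgeR's quasi-likelihood test over all 12 mice). In CLP versus sham, 0 of 10 rose (1.64% of all genes tested did), 0 of 10 fell (1.14%), and 2.78% of all genes passed in either direction. After DCA, 0.0379% of all genes passed against sham and, against CLP, 0.00758%, which is 1 gene. At an unadjusted p under 0.05, Hspd1 and Hspe1 lay below sham in CLP (2 of 10; 28.6% of all genes passed this limit), 1 was higher in CLP+DCA than in sham (Hsp90aa1; 13%), and 2 were higher in CLP+DCA than in CLP (Hsp90aa1 and Hspe1; 10%). The median log2 fold change of the 10 genes was -0.13 in CLP versus sham, 0.11 in CLP+DCA versus sham and 0.44 in CLP+DCA versus CLP, beside 0.02, 0.01 and 0.01 over all genes tested. With each mouse left out in turn, these medians ran from -0.24 (without CLP replicate 3) to -0.0153 (without sham replicate 2), from 0.0317 (without CLP+DCA replicate 1) to 0.33 (without CLP+DCA replicate 3) and from 0.30 (without CLP replicate 2) to 0.63 (without CLP+DCA replicate 3). By DESeq2 on all 12 mice, too, 0 of 10 passed in each comparison. Other settings called up to 4 of the 10, each named below with its gene. Group ranges that do not overlap were found for Hspd1 and Hspe1 in CLP versus sham (26.5% of all genes), and for 0 of 10 in CLP+DCA versus sham (9.76%) and in CLP+DCA versus CLP (4.37%).

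**Figure D3:**
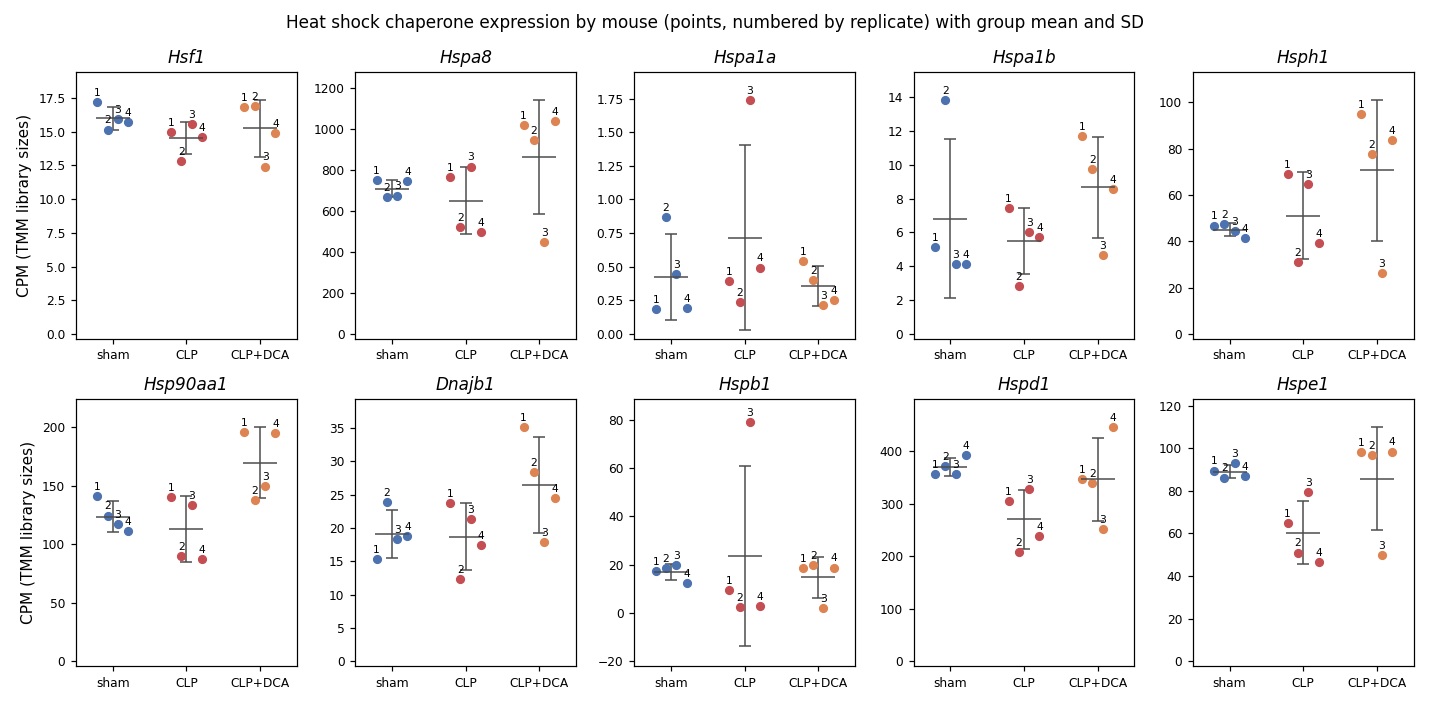
Expression of each of the 10 genes in CPM (y axes from 0, except Hspb1, whose SD bar runs below 0) in sham, CLP and CLP+DCA mice, with points numbered by replicate, a bar at the mean and whiskers of 1 SD (n = 4). CLP+DCA 3 is the lowest of its group in 9 of the 10 panels, and Hspb1 reached 79.2 CPM in CLP 3.

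The spread between mice was wider after CLP than after sham surgery. The median SD over the 10 genes on the log2 CPM scale was 0.12 for sham, 0.39 for CLP mice and 0.50 for CLP+DCA mice, beside 0.15, 0.21 and 0.28 over all genes. The SD was wider than in sham for 9 of 10 genes in CLP (66.1% of all genes) and for 8 of 10 in CLP+DCA (77.9%). CLP replicate 2 was the lowest CLP mouse for 7 of the 10 genes and CLP replicate 4 for the other 3, whereas they were lowest for 31.2% and 21.2% of all genes. CLP+DCA replicate 3 was the lowest of its group for 9 of the 10 (39.5% of all genes), Hsp90aa1 being the exception. None of these 3 mice was the highest of its group for any of the 10.

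Hsf1 (gene ID 15499, chr15:76477362-76501155, plus strand in mm10) encodes the master transcription factor of the heat shock response, which is regulated largely at the protein level. Its 4 sham mice had 17.2, 15.2, 15.9 and 15.7 CPM, the CLP mice 15.0, 12.8, 15.6 and 14.6 CPM and the CLP+DCA mice 16.8, 16.9, 12.4 and 14.9 CPM. The 3 groups overlapped. Its log2 fold change was -0.14 in CLP versus sham (SE 0.11, 95% CI -0.37 to 0.09, adjusted p = 0.384), -0.07 in CLP+DCA versus sham (95% CI -0.30 to 0.16) and 0.07 in CLP+DCA versus CLP (95% CI -0.16 to 0.30). Without CLP+DCA replicate 3 the last 2 values were 0.0187 and 0.16. The intervals of Hsf1 are the narrowest among the 10 genes. Of the 5 tested heat shock factors and HSF1 regulators 0 passed the FDR in any comparison by edgeR on 12 mice (median -0.14 in CLP versus sham). Hsf4, a factor best known from the lens, had the smallest p of the list, with 7.13 ± 0.306 CPM in sham and 4.50 ± 0.797 in CLP (log2 fold change -0.66, adjusted p = 0.0731). DESeq2 called Hsf4 lower in CLP on 12 mice (adjusted p = 0.0229) and on the 8 mice compared (adjusted p = 0.000542). So did edgeR on those 8 mice (adjusted p = 0.0184) and without CLP+DCA replicate 3 (adjusted p = 0.00937), and limma's voom with sample quality weights (adjusted p = 0.0107). Hsbp1, a small protein that binds HSF1, was at -0.21 by edgeR on 12 mice (adjusted p = 0.293).

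Hspa8 (gene ID 15481, chr9:40801273-40805199, plus strand) encodes HSC70, the constitutive cytosolic HSP70. Sham mice had 749, 668, 675 and 746 CPM, CLP mice 764, 522, 817 and 499 CPM, and CLP+DCA mice 1019, 948, 449.7 and 1037 CPM. In each septic group some mice lay above and others below the narrow sham range: 2 of 4 CLP mice and 3 of 4 CLP+DCA mice were higher than every sham mouse. On the log2 scale the fold change was -0.13 in CLP versus sham (95% CI -0.68 to 0.42, adjusted p = 0.755), 0.28 in CLP+DCA versus sham (95% CI -0.27 to 0.83, adjusted p = 0.621) and 0.41 in CLP+DCA versus CLP (95% CI -0.14 to 0.96, adjusted p = 0.62). Without CLP+DCA replicate 3 the last 2 values were 0.50 (adjusted p = 0.398) and 0.62 (adjusted p = 0.0566), and without CLP replicate 4 the first was -0.0193. Limma's voom with sample quality weights called the last at 0.63 (adjusted p = 0.0323). Of the transcript's 100-base windows 63.4% are shared with other annotated genes, chiefly Gm26825, so that the count depends on how reads with several matches were treated, which is not given in the sources used here.

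Hspa1a (gene ID 193740, chr17:34969359-34972156, minus strand) and Hspa1b (gene ID 15511, chr17:34956429-34959238, minus strand) encode the stress-induced HSP70, are strongly induced in heated cells, and lie 10120 bases apart on chromosome 17. Both were scarce. Hspa1b had 5.13, 13.8, 4.14 and 4.13 CPM in sham, 7.46, 2.82, 6.02 and 5.70 CPM in CLP, and 11.7, 9.74, 4.65 and 8.55 CPM in CLP+DCA. A single sham mouse, replicate 2, stood above all the septic mice. Hspa1a had 0.186, 0.866, 0.443 and 0.191 CPM in sham, 0.391, 0.239, 1.74 and 0.494 CPM in CLP, and 0.542, 0.403, 0.216 and 0.254 CPM in CLP+DCA, on 5 to 72 reads per mouse. The highest value was that of CLP replicate 3, the liver with muscle transcripts, where Hspa1a also held 22.4% of the reads of the pair against 2.89% to 9.66% in the other 11 mice. The log2 fold change of Hspa1b was -0.30 in CLP versus sham (95% CI -1.26 to 0.65, adjusted p = 0.656) and 0.64 in CLP+DCA versus CLP (95% CI -0.31 to 1.60, adjusted p = 0.653). Without sham replicate 2 the first value was 0.31. Against sham, CLP+DCA mice were at 0.34 (95% CI -0.61 to 1.29, adjusted p = 0.729), or 0.54 without CLP+DCA replicate 3. With 1 mouse left out, this value ran from 0.16 without sham replicate 4 to 0.95 without sham replicate 2. The log2 fold change of Hspa1a was 0.78 in CLP versus sham (95% CI -0.62 to 2.18, adjusted p = 0.42) and -0.19 without CLP replicate 3. CLP+DCA mice were at -0.29 against sham (95% CI -1.77 to 1.19, adjusted p = 0.854) and -1.07 against CLP (95% CI -2.51 to 0.37, adjusted p = 0.62), the latter -0.10 without CLP replicate 3. With both genes merged into 1 row the values in the 3 comparisons, in the order above, were -0.21, 0.31 and 0.52, and none passed the FDR. Of their windows 56.5% (Hspa1a) and 49.9% (Hspa1b) are shared, mostly with each other, so that reads may be split between them. Their deviations from the group means correlated over the 12 mice (Pearson r = 0.66, permutation p = 0.0204, adjusted p = 0.0204 over 2 pairs, Spearman rho = 0.68, permutation p = 0.0189). Without sham replicate 2 and CLP replicate 3 r was 0.58, which did not pass 0.05 over the remaining 10 mice (permutation p = 0.0837). The correlation was not particular to this pair. Hspa1b followed Dnajb1 (r = 0.85) and Hsph1 (r = 0.68) more closely, and Hspa1a followed Hspb1 (r = 0.70) and Dnajb1 (r = 0.68) more closely. With the remaining chaperone genes both correlated less closely.

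Hsph1 (gene ID 15505, chr5:149616845-149636336, minus strand) encodes HSP110, which exchanges nucleotide on HSP70. Its sham mice had 46.8, 47.5, 44.4 and 41.3 CPM, the CLP mice 69.2, 31.0, 64.6 and 39.4 CPM, and the CLP+DCA mice 94.9, 77.6, 26.1 and 83.8 CPM. In CLP, 2 mice lay above and 2 below the whole sham range, and in CLP+DCA 3 lay above and replicate 3 below it. Log2 fold changes of Hsph1 were 0.18 in CLP versus sham (95% CI -0.58 to 0.95, adjusted p = 0.741), 0.65 in CLP+DCA versus sham (95% CI -0.12 to 1.41, adjusted p = 0.437) and 0.47 in CLP+DCA versus CLP (adjusted p = 0.69). Without CLP+DCA replicate 3 the last value was 0.74 (adjusted p = 0.0761) and without CLP replicate 2 it was 0.29. With 1 mouse left out, the first ran from 0.000707 without CLP replicate 1 to 0.36 without CLP replicate 2. It was 0.0513 without CLP replicate 3. Voom with sample quality weights called the last 2, at 0.93 (adjusted p = 0.0294) and 0.77 (adjusted p = 0.0496). No window of Hsph1 is shared with another gene.

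Of the 13 tested genes of the HSP70 and HSP110 family, 1 fell and 0 rose in CLP versus sham by edgeR on 12 mice. In that fit 0 passed in the other comparisons. The medians of the 3 comparisons were -0.13, 0.06 and 0.28. The one that fell was Hspa9, the mitochondrial HSP70, described below. Hspa13, an HSP70 of the endoplasmic reticulum membrane, had 36.5 ± 2.0 CPM in sham, 95.6 ± 44.3 with CLP and 76.1 ± 48.5 with CLP+DCA (log2 fold change 1.39 in CLP versus sham, adjusted p = 0.0708), with 142, 125 and 149 CPM in CLP replicates 2 and 4 and CLP+DCA replicate 3. Hspa5, the HSP70 of the endoplasmic reticulum lumen, had 839 ± 87.1, 1627 ± 690 and 1207 ± 486 CPM (0.95 in CLP versus sham, adjusted p = 0.0938). Those 3 values of Hspa13 were the highest of all 12 mice. Hspa13 passed as higher in CLP than in sham by DESeq2 on 12 mice (adjusted p = 0.00843) and by voom with sample quality weights (adjusted p = 0.00476). It also passed by edgeR on the 8 mice compared (adjusted p = 0.0238) and without CLP+DCA replicate 3 (adjusted p = 0.00841).

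Hsp90aa1 (gene ID 15519, chr12:110691036-110696395, minus strand) encodes the stress-responsive form of cytosolic HSP90. Sham mice had 141, 124, 117 and 111 CPM, CLP mice 140.4, 90.0, 133 and 87.6 CPM, and CLP+DCA mice 196, 138, 149.6 and 195 CPM. The CLP+DCA mice were the highest group, but replicate 2 lay within the range of the other groups. For Hsp90aa1 the log2 fold change was -0.13 in CLP versus sham (SE 0.18, adjusted p = 0.642), 0.46 in CLP+DCA versus sham (SE 0.18, 95% CI 0.06 to 0.85, unadjusted p = 0.0278 and adjusted p = 0.328 by edgeR) and 0.59 in CLP+DCA versus CLP (SE 0.18, 95% CI 0.19 to 0.98, unadjusted p = 0.00746 and adjusted p = 0.363). With 1 mouse left out, the first value ran from -0.25 to -0.0288, the latter without CLP replicate 4. It was -0.22 without CLP replicate 3. Voom with sample quality weights gave 0.69 for the last (adjusted p = 0.0323). Of its windows 47.5% are shared with other annotated genes, mainly Gm12346. Of the 3 cytosolic and mitochondrial HSP90 genes, 1 (Trap1) fell in CLP versus sham and 0 passed in the other comparisons (medians -0.45, -0.06 and 0.39). The constitutive Hsp90ab1 had 864 ± 64.6, 633 ± 169 and 832 ± 206 CPM (-0.45 in CLP versus sham, adjusted p = 0.19).

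Dnajb1 (gene ID 81489, chr8:83608175-83612653, plus strand) encodes HSP40, the J-domain protein that delivers clients to cytosolic HSP70. Its sham mice had 15.3, 23.9, 18.3 and 18.8 CPM, the CLP mice 23.7, 12.3, 21.3 and 17.4 CPM, and the CLP+DCA mice 35.1, 28.4, 17.8 and 24.4 CPM. In CLP+DCA, 3 mice were above every sham and CLP mouse, and replicate 3 lay inside the sham range. For Dnajb1 the log2 fold change was -0.03 in CLP versus sham (95% CI -0.54 to 0.48, adjusted p = 0.946), 0.47 in CLP+DCA versus sham (95% CI -0.04 to 0.98, adjusted p = 0.409) and 0.50 in CLP+DCA versus CLP (95% CI -0.01 to 1.0, adjusted p = 0.503). The first value was 0.12 without CLP replicate 2 and -0.0947 without CLP replicate 3. Voom with sample quality weights called CLP+DCA versus sham, at 0.76 (adjusted p = 0.0393). Of the 35 J-domain proteins, 0 rose and 0 fell in any comparison by edgeR on 12 mice. In CLP versus sham 17 estimates were higher and 18 lower (median 0.00). Dnajc18 (0.50, adjusted p = 0.0524) and Dnajc1 (0.46, adjusted p = 0.0585), both in the membrane of the endoplasmic reticulum, had the smallest p. Both passed by DESeq2 on 12 mice, which called 3 of the 35 higher and 0 lower (1038 and 868 of 14255 genes). Voom with sample quality weights called 4 higher, both included, and 2 lower (1718 and 1699 of 13190 genes).

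Hspb1 (gene ID 15507, chr5:135887919-135889563, plus strand) encodes the small heat shock protein HSP25, which holds unfolded proteins without ATP and is abundant in muscle. It varied most between mice. Sham mice had 17.4, 18.5, 19.8 and 12.4 CPM, CLP mice 9.37, 2.39, 79.2 and 2.69 CPM, and CLP+DCA mice 18.6, 19.8, 1.89 and 18.8 CPM. The value of 79.2 CPM belongs to CLP replicate 3, the liver with muscle transcripts, and the other 3 CLP mice were below every sham mouse. CLP+DCA replicate 3 was likewise below every sham mouse, whereas the other 3 mice of that group lay within the sham range. Its log2 fold change in CLP versus sham was 0.47 with all mice (SE 0.97, adjusted p = 0.763) and -1.78 without CLP replicate 3 (adjusted p = 0.118, unadjusted p = 0.0282 by edgeR). In CLP+DCA versus CLP it was -0.68 with all mice (adjusted p = 0.848) and 1.57 without that mouse (adjusted p = 0.414), and in CLP+DCA versus sham -0.21 (95% CI -2.35 to 1.93, adjusted p = 0.931), or 0.16 without CLP+DCA replicate 3. Of its windows 42.7% are shared with the pseudogene Hsp25-ps1. Of the 10 small heat shock proteins 5 passed the filter and 0 the FDR in any comparison. Their median in CLP versus sham was 0.47 with all mice and -0.42 without CLP replicate 3, and it was also below 0 by voom (-0.0408) and with the replicate number as a block (-0.14). Cryab, αB-crystallin, which is likewise rich in muscle, had 65.0 CPM in CLP replicate 3 and 1.64 to 2.82 CPM in the other 11 mice (log2 fold change 3.24, adjusted p = 0.0771). Hspb8, a partner of the co-chaperone Bag3, had 257 ± 26.9, 211 ± 70.1 and 263 ± 66.0 CPM (-0.29 in CLP versus sham, adjusted p = 0.436).

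Hspd1 (gene ID 15510, chr1:55077833-55088243, minus strand) encodes HSP60, the barrel in which mitochondrial proteins fold, and Hspe1 (gene ID 15528, chr1:55088148-55091317, plus strand) encodes HSP10, its lid. Both were lower in every CLP mouse than in every sham mouse, though neither passed the FDR. Hspd1 had 357, 372, 357 and 393 CPM in sham, 306, 208, 328 and 238 CPM in CLP, and 348, 339.8, 252 and 446 CPM in CLP+DCA. Hspe1 had 89.6, 86.3, 93.3 and 87.2 CPM in sham, 64.7, 51.0, 79.4 and 46.5 CPM in CLP, and 98.3, 96.9, 49.7 and 98.5 CPM in CLP+DCA. For Hspe1, 3 CLP+DCA mice were above every sham mouse and replicate 3 was within the CLP range. For Hspd1 the CLP+DCA mice lay on both sides of the sham range. In CLP versus sham the log2 fold change was -0.45 for Hspd1 (SE 0.18, 95% CI -0.85 to -0.05, unadjusted p = 0.0295 and adjusted p = 0.134 by edgeR) and -0.56 for Hspe1 (SE 0.22, 95% CI -1.03 to -0.09, unadjusted p = 0.0245 and adjusted p = 0.124). In CLP+DCA versus sham they were -0.09 (95% CI -0.49 to 0.31) and -0.05 (95% CI -0.53 to 0.42), or 0.0314 and 0.14 without CLP+DCA replicate 3, and in CLP+DCA versus CLP 0.36 (95% CI -0.04 to 0.76, adjusted p = 0.537) and 0.51 (95% CI 0.03 to 0.98, adjusted p = 0.468).

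The call of this pair in CLP versus sham depended on mice and settings, with nearly the same sizes. Without CLP+DCA replicate 3, which is no part of that comparison but shares the estimate of the spread, both passed, Hspd1 at -0.45 (adjusted p = 0.0474) and Hspe1 at -0.56 (adjusted p = 0.017). Then 3157 genes passed in all, against 367 with every mouse. With DESeq2 on the 8 mice compared both passed (adjusted p = 0.0163 and 0.00754), likewise with voom and sample quality weights (adjusted p = 0.0217 and 0.00673). With edgeR on the 8 mice Hspe1 alone passed (adjusted p = 0.0375). Over all genes, DESeq2 on the 8 mice called 1679 of 14755 lower, voom 1699 of 13190 and edgeR on the 8 mice 1176 of 13079. Against CLP, Hspe1 passed in CLP+DCA mice without CLP+DCA replicate 3 (0.69, adjusted p = 0.0318) and by voom with sample quality weights (0.73, adjusted p = 0.0126). Over all genes, the former called 267 of 13288 higher and the latter 613 of 13190. Hepatocyte marker sums were lower and neutrophil marker sums higher in every CLP mouse than in every sham mouse. The single markers did not all follow their sum. Of the 9 hepatocyte markers 7 had lower and 2 higher estimates, and 2 lay wholly below sham (26.5% of all genes did not overlap, in either direction). Of the 9 neutrophil markers tested 8 lay wholly above sham and 1 had a lower estimate. In whole liver, fewer cells of a type and less RNA per cell cannot be told apart. The part of either in the values of Hspd1 and Hspe1 was not tested. The deviations of Hspd1 and Hspe1 from their group means correlated over the 12 mice (Pearson r = 0.84, permutation p = 0.00047, adjusted p = 0.00094 over 2 pairs; Spearman rho = 0.80, permutation p = 0.00249, adjusted p = 0.00498), also without CLP+DCA replicates 3 and 4 (r = 0.77, permutation p = 0.00987). The permutations ran over all 12 mice without regard to group, while the spread differed between groups, so that these p-values are approximate. The 2 annotated genes overlap by 96 bases on opposite strands, the kit does not mark strand, and reads in that overlap cannot be told apart. The correlation was not particular to this pair. The deviations of Hspe1 followed those of Hspa8 (r = 0.97), Hsph1 (r = 0.93) and Hspb1 (r = 0.92) more closely than those of Hspd1. Those of Hspd1 followed Hspa8 (r = 0.88) and Hsph1 (r = 0.86) more closely than Hspe1. With the remaining chaperone genes both correlated less closely.

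**Figure D4:**
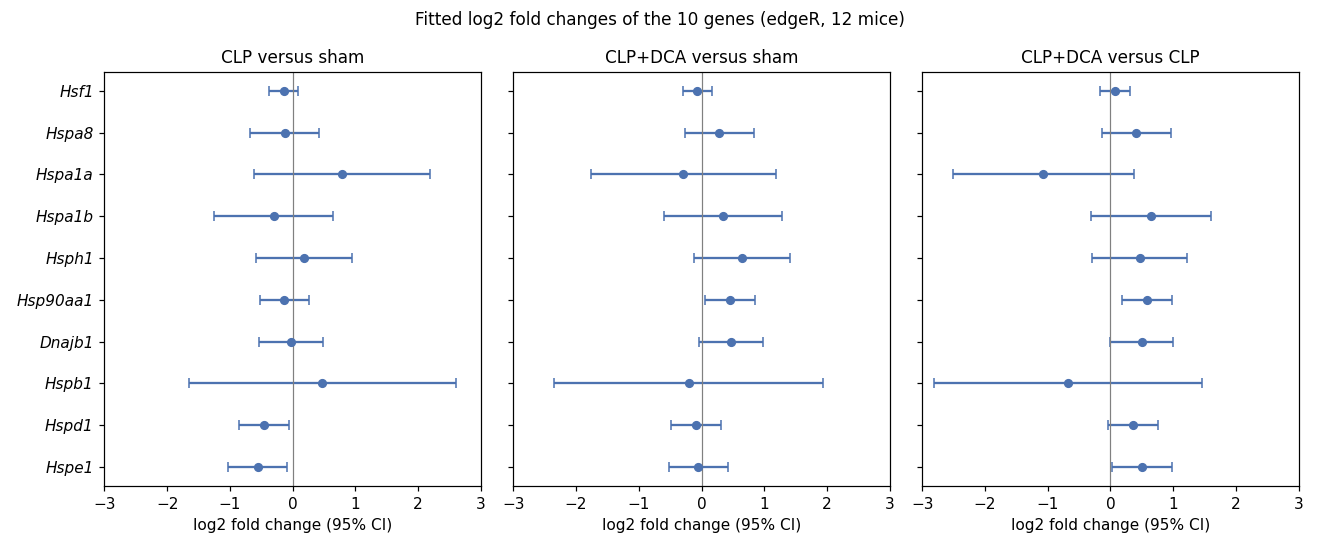
Log2 fold change (points) with 95% CI (whiskers) of the 10 genes in the 3 comparisons, fitted by edgeR to 12 mice. In CLP versus sham only the intervals of Hspd1 and Hspe1 leave out 0, both below it; in CLP+DCA versus CLP those of Hsp90aa1 and Hspe1 do, both above it.

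Among the other chaperones, those of the mitochondrion held most of the calls in CLP versus sham by edgeR on 12 mice. Of the 14 mitochondrial chaperones and proteases, 3 fell (1.14% of all genes tested) and 0 rose (1.64%) in CLP versus sham (median -0.24). In that fit 0 passed in CLP+DCA versus sham (median -0.12) or in CLP+DCA versus CLP (median 0.10). By voom with sample quality weights, 7 of the 14 fell in CLP versus sham, Hspd1 and Hspe1 included, and 1 rose. Voom also called 7 of 23 co-chaperones lower and 1 higher, and 9 of 14 genes of TRiC and prefoldin, described below, lower and 0 higher. Lonp1, the protease of the matrix, had 139, 156, 146 and 147 CPM in sham, 99.6, 95.8, 108 and 92.0 CPM in CLP, and 115, 123, 99.7 and 129 CPM in CLP+DCA. Trap1, the mitochondrial HSP90, had 144, 159, 153 and 145 CPM in sham, 101, 98.7, 108 and 95.5 CPM in CLP, and 112, 109, 86.9 and 129.5 CPM in CLP+DCA. Hspa9, mortalin, which pulls proteins into the matrix, had 436, 463, 424 and 525 CPM in sham, 341, 324, 355 and 283 CPM in CLP, and 378, 374, 418 and 450.3 CPM in CLP+DCA. For all 3 genes the CLP mice lay below every sham mouse. The log2 fold changes in CLP versus sham were -0.57 for Lonp1 (adjusted p = 0.0254), -0.58 for Trap1 (adjusted p = 0.0355) and -0.50 for Hspa9 (adjusted p = 0.0479). In CLP+DCA versus sham they were -0.33, -0.46 and -0.19, none past the FDR by edgeR on 12 mice. DESeq2 on 12 mice called Lonp1 (-0.34, adjusted p = 0.0349) and Trap1 (-0.46, adjusted p = 0.0139) lower there. Voom with sample quality weights did too (adjusted p = 0.0326 and 0.0139), but DESeq2 and edgeR on the 8 mice compared called neither. For Lonp1 and Trap1 every CLP+DCA mouse was also below every sham mouse. By edgeR the calls in CLP versus sham were fragile. With each of the 12 mice left out in turn, Lonp1 passed in 5 of 12 fits, Trap1 in 3 and Hspa9 in 3. The fits without any 1 sham mouse, or without CLP replicate 1, 2 or 4, called none of the 3 genes. Those fits called few genes of any kind, at most 60 higher and 19 lower, against 216 and 151 with every mouse. DESeq2 on 12 mice called all 3 lower (adjusted p = 1.05e-06 for Lonp1, 0.000128 for Trap1 and 0.000194 for Hspa9). So did voom with sample quality weights (adjusted p = 0.000904, 0.00106 and 0.00527). By contrast, edgeR with the replicate number as a block called none of them. Clpx, the unfoldase of the ClpXP protease, was by contrast at 93.5 ± 5.27 CPM in sham and 155 ± 36.5 in CLP (0.73, adjusted p = 0.0739), a gene named after its values were seen.

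The co-chaperones had the strongest single call. Of the 23 co-chaperones of HSP70 and HSP90, 1 rose and 0 fell in CLP versus sham, while 18 estimates were lower (median -0.23), and 0 passed in CLP+DCA versus sham (median -0.04) or CLP+DCA versus CLP (median 0.19). The one that rose was Fkbp5, an HSP90 co-chaperone of steroid receptors and a well-known glucocorticoid-induced gene. It had 30.2, 34.3, 49.7 and 42.1 CPM in sham, 141, 195, 136 and 171 CPM in CLP, and 107, 116, 99.4 and 60.4 CPM in CLP+DCA, and no 2 groups overlapped. The log2 fold change was 2.04 in CLP versus sham (SE 0.22, adjusted p = 0.00698), 1.29 in CLP+DCA versus sham (adjusted p = 0.108) and -0.75 in CLP+DCA versus CLP (adjusted p = 0.326). Fkbp5 passed in CLP versus sham in all 12 fits that left out 1 mouse. Its difference between CLP+DCA and sham mice passed by DESeq2 on 12 mice (adjusted p = 1.69e-05) and on 8 mice (adjusted p = 0.000156), by voom with sample quality weights (adjusted p = 0.0032) and by edgeR without CLP+DCA replicate 4 (1.46, adjusted p = 0.0316). Bag1, a nucleotide exchange factor of HSP70, was at -0.28 in CLP versus sham (adjusted p = 0.0938). Voom with sample quality weights called more of the 23 co-chaperones: 7 fell and 1 rose in CLP versus sham. By the same method 4 rose in CLP+DCA versus sham and 10 rose in CLP+DCA versus CLP, and 0 fell in either.

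Of the 14 genes of TRiC, the cytosolic chaperonin that folds actin and tubulin, and of prefoldin, 0 passed in any comparison by edgeR on 12 mice. In CLP versus sham 4 fell by DESeq2 on 12 mice (868 of 14255 genes in all) and 5 by DESeq2 on 8 mice (1679 of 14755). By edgeR on 8 mice 3 fell (1176 of 13079), and 9 by voom with sample quality weights. By edgeR with 1 mouse left out, 4 fell without CLP+DCA replicate 3 (1530 of 13288) and 1 without CLP replicate 3 (433 of 13274). In CLP+DCA versus CLP 8 rose by voom, 1 by DESeq2 on 12 mice (74 of 15656) and 1 by DESeq2 on 8 mice (41 of 12998). In CLP versus sham 12 estimates were lower and 2 higher (median -0.25), with Tcp1 at -0.35 (adjusted p = 0.0756) and Cct5 at -0.29 (adjusted p = 0.0771). Against CLP, all 14 estimates were higher in CLP+DCA mice (median 0.23) and in CLP+DCA versus sham 7 were higher and 7 lower (median -0.01). Of the 27 HSF1 target genes, which include 9 of the 10 genes above, 1 (Hspa9) fell and 0 rose in CLP versus sham, with 19 estimates lower (median -0.24) and 8 higher. In CLP+DCA versus CLP 21 were higher and 6 lower (median 0.36, beside 0.01 over all genes tested). By edgeR on 12 mice 0 passed in either comparison with CLP+DCA. Voom with sample quality weights called 8 of the 27 lower and 3 higher in CLP versus sham. It called 4 higher in CLP+DCA versus sham and 12 higher in CLP+DCA versus CLP, and 0 lower in either. Of all 13190 genes tested, voom called 1718, 265 and 613 higher and 1699, 208 and 674 lower in the 3 comparisons.

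Cold-inducible and immediate early genes were looked at as signs of body temperature and of acute stress. Septic mice can become cold, and Rbm3 and Cirbp are RNA-binding proteins that rise in the cold. Rbm3 had 28.5, 29.5, 27.7 and 30.5 CPM in sham, 34.6, 95.5, 31.0 and 57.4 CPM in CLP, and 26.9, 33.4, 101 and 22.6 CPM in CLP+DCA. Its 3 highest values were those of CLP replicates 2 and 4 and CLP+DCA replicate 3, the mice with the lowest chaperone shares, and its log2 fold change in CLP versus sham was 0.91 (adjusted p = 0.222). Cirbp was at 0.23 (adjusted p = 0.376). Body temperature was not analysed here, and its part was not tested. Of the 11 immediate early genes tested, 1 fell and 0 rose in CLP versus sham (median 0.36), and 0 passed with CLP+DCA mice. Dusp1, a phosphatase of stress-activated kinases, had 30.4, 26.6, 25.4 and 16.0 CPM in sham, 9.88, 12.4, 12.7 and 8.08 CPM in CLP, and 36.7, 55.5, 27.3 and 33.2 CPM in CLP+DCA. CLP mice lay below all other mice, with a log2 fold change of -1.19 against sham (adjusted p = 0.039; passed in 5 of the 12 fits with 1 mouse left out), and CLP+DCA mice were higher than CLP mice by 1.82 on the log2 scale (adjusted p = 0.0718). DESeq2 called this difference on 12 mice (adjusted p = 2.11e-08) and on 8 mice (adjusted p = 1.73e-08), as did voom with sample quality weights (adjusted p = 0.00386), edgeR with the replicate number as a block (adjusted p = 0.0393) and edgeR without CLP+DCA replicate 3 (adjusted p = 0.00779) or without sham replicate 4 (adjusted p = 0.0373). Junb, a subunit of AP-1, was at 0.66 in CLP versus sham (adjusted p = 0.189).

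The genes whose log2 CPM followed the chaperones most closely over the 12 mice were taken from 9076 genes, as a description that holds the group differences and the 3 mice above. For Hspa8 they were Hikeshi, which carries HSP70 into the nucleus (r = 0.95), Dnaja1 (r = 0.95), Aprt (r = 0.93), Ahsa1 (r = 0.93) and Chordc1 (r = 0.93). For Hspd1 they were Rab3ip (r = 0.97), Atg14, Fastkd2, Ugdh and Ttc4 (r = 0.96 each). For Hspa1b they were Phospho2 (r = 0.89), Ppp1r3b (r = 0.87), Naa16 (r = 0.87), C2cd2l (r = 0.83) and Hexim1 (r = 0.83). Dnaja1, Ahsa1 and Chordc1 encode co-chaperones of HSP70 or HSP90.

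**Figure D5:**
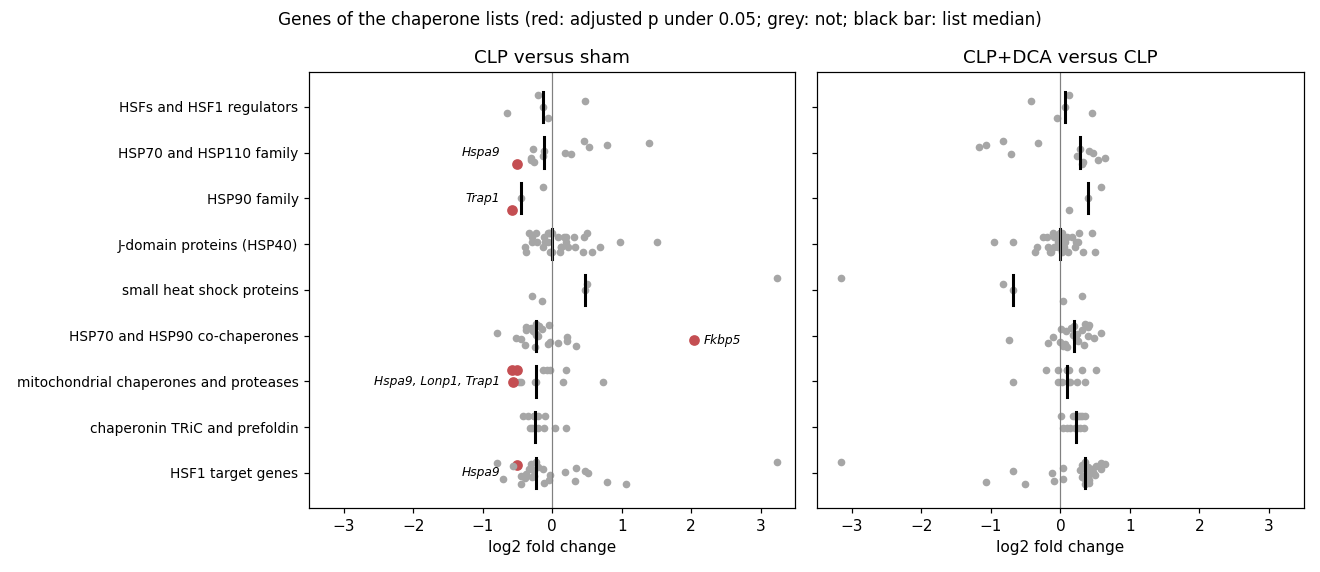
Log2 fold changes of every tested gene of 9 chaperone lists, the 10 genes included, in CLP versus sham (left) and CLP+DCA versus CLP (right), with red points past an adjusted p of 0.05 and black bars at the list medians. Red points are Hspa9, Trap1 and Lonp1 on the lower side and Fkbp5 on the higher side in CLP versus sham, and none in CLP+DCA versus CLP.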

How the data were processed

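Liver RNA of 12 mice, 4 a group as the sample labels give them, was sequenced from poly(A) libraries with 100-base paired ends by a kit that does not mark strand. The authors aligned reads to mm10 with STAR 2.5 and deposited raw read counts per gene from featureCounts (Subread 1.5.0-p1). Annotation, strand setting and treatment of reads with several matches are not given in the sources used here, and such reads decide the values of near-identical genes. Genes were kept by filterByExpr (minimum count 10), which left 13190 of 25611. Group differences were tested on the counts with edgeR 4.0.16 (TMM, robust quasi-likelihood test over all 12 mice, R 4.3.3), with Benjamini-Hochberg adjustment over all genes tested and an FDR of 0.05. SE is the log2 fold change over the square root of F. Alternatives used DESeq2 1.42.0, limma 3.58.1 (voom with sample quality weights), other scalings and filters, and each mouse left out. Log2 CPM used a prior count of 2. The 2 gene pairs were tested by 100000 permutations of the deviations over all 12 mice, without regard to group. Their p-values are approximate, since the spread differed between groups. Scripts were tested on simulated data. Shared windows are 100-base stretches of a member's transcript also found in another gene. Each sample is 1 mouse by the labels. The 10 genes and all lists were chosen with earlier results of these data known. Named were all 10 genes, Hsp90ab1, Hspa5, Cirbp, Rbm3, the 2 other genes with the smallest p of each list in CLP versus sham, list genes past the FDR (up to 3 a list) and the 5 genes most like Hspa1b, Hspa8 and Hspd1 above a mean of 5 CPM. Some items that this rule names are not reported here.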

Additional observations from a re-analysis of the deposited data

Results flagged for a closer look

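In 6 of the 30 sets of 4 mice (10 genes in 3 groups), 1 mouse stood far from the others: its gap to the nearest mouse, as a share of the range of the group, was above Dixon's 95% critical value. Chance flags about 1 in 20 such sets, and over all genes the share was 5.73% for sham mice, 5.34% for CLP mice and 13.3% for CLP+DCA mice. Sham replicate 2 was high in Hspa1b (ratio 0.897), with 13.8 CPM against 5.13 in the nearest mouse. CLP replicate 3, whose liver held skeletal muscle transcripts, was high in Hspb1 (ratio 0.909), with 79.2 CPM against 9.37, and in Hspa1a (ratio 0.830), with 1.74 CPM against 0.494. CLP+DCA replicate 3 was low in Hspe1 (ratio 0.968), with 49.7 CPM against 96.9, in Hspb1 (ratio 0.934), with 1.89 CPM against 18.6, and in Hspa8 (ratio 0.849), with 449.7 CPM against 948.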

How the results depend on the processing

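The 10 chaperones kept 0 calls in the 3 comparisons under most settings, while the counts over all genes moved widely. In CLP versus sham 367 genes, 0 of the 10 and 5 other list genes passed. These counts were 1906 genes and 21 list genes by DESeq2 on 12 mice, 3422, 2 of the 10 and 33 by DESeq2 on 8 mice, 2387, 1 and 24 by edgeR on 8 mice, 3417, 2 and 40 by voom with sample quality weights, 122 genes and 3 list genes with no filter, and 10 genes and 1 list gene at an FDR of 0.01. Leaving out 1 mouse gave 10 (without sham replicate 3) to 3157 genes (without CLP+DCA replicate 3), 0 to 2 of the 10 and 1 to 27 list genes. In CLP+DCA versus sham (5 genes, 0 and 0), DESeq2 on 12 mice called 243 genes and 4 list genes, DESeq2 on 8 mice 169 and 2, edgeR on 8 mice 0 genes, voom 473 genes, 2 of the 10 and 9 list genes, library size alone 3 genes and an FDR of 0.01 1 gene, and leaving out 1 mouse gave 1 to 11 genes and 0 to 1 list gene. For CLP+DCA versus CLP (1 gene, 0 and 0), they were 137 and 2, 80 and 2, 0 genes, 1287 genes with 4 of the 10 and 32 list genes, and 0 genes at an FDR of 0.01, and leaving out 1 mouse gave 0 to 616 genes, 0 to 1 of the 10 and 0 to 8 list genes. The cause was not tested. Library size alone moved the median of all genes to -0.16 in CLP versus sham and 0.12 in CLP+DCA versus CLP.

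The replicate block used numbers that pair no samples: of 12 same-numbered pairs 1 had a correlation of deviations over 0.1. With the replicate block 46 genes and 1 list gene passed in CLP versus sham, 0 genes in CLP+DCA versus sham, and 4 genes and 1 list gene in CLP+DCA versus CLP; it called none of the 10, and Hspb1 changed sign to -0.45, 0.10 and 0.55 in the 3 comparisons.

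Directions of small or uneven changes turned. By voom in CLP versus sham Dnajb1 was 0.0887 and Hspb1 -0.87; in CLP+DCA versus sham Hsf1 was 0.0332, Hspa1a 0.32, Hspb1 0.0638 and Hspe1 0.12; and in CLP+DCA versus CLP Hspb1 was 0.93. With 1 mouse left out, log2 fold changes in CLP versus sham ran from -0.16 to 0.12 for Dnajb1, -0.19 to 1.42 for Hspa1a, -0.49 to 0.31 for Hspa1b and -1.78 to 0.84 for Hspb1. For CLP+DCA versus sham they ran from -0.12 to 0.0187 for Hsf1, -0.57 to 0.36 for Hspa1a, -0.38 to 0.16 for Hspb1, -0.24 to 0.0314 for Hspd1 and -0.13 to 0.14 for Hspe1, and in CLP+DCA versus CLP from -1.05 to 1.57 for Hspb1. Hspd1 and Hspe1 stayed lower in CLP than sham mice in every setting, with adjusted p of 0.0163 to 0.316 and 0.00673 to 0.281. The correlation of Hspa1a with Hspa1b ran from 0.49 (without sham replicate 2, permutation p = 0.121) to 0.80 with 1 mouse left out, an alternative chosen after seeing the data. Hspa1a, at 5 to 72 reads per mouse, is limited by depth.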
